A study of Mus musculus with 2 samples.

Results

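Potassium channel genes were followed in MIN6, a mouse insulinoma line that secretes insulin and serves as a beta cell model. The genes are the protein-coding rows of the deposited all-gene table whose symbol starts with Kcn, leaving out Kcnj11, the pore gene of the ATP-sensitive channel. This rule, which uses names and gene types only, gave 71 of the 21542 genes in the table. RNA was sequenced from 1 culture that received a control vector (control cells) and from 1 that received a vector expressing GR (GR cells). GR, the glucocorticoid receptor encoded by Nr3c1, is a nuclear receptor that acts on transcription when bound by glucocorticoid. Both samples are labelled C57BL/6, the strain the line comes from, and both received 4 ug of plasmid with 4.8 ul of Lipofectamine 2000 in medium holding 25 mM glucose and 15% serum. Not given in the sources used here are the GR cDNA's form, the share of cells transfected, the harvest time and whether glucocorticoid was added. In such bulk RNA, fewer cells of a type and less RNA per cell cannot be told apart. With 1 library per group, no difference below has a replicate check, and every interval and test compares these 2 libraries and covers counting error only.

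Potassium channels let potassium leave the cell and so hold or restore a negative membrane potential. In beta cells, closure of ATP-sensitive channels after glucose metabolism depolarizes the membrane and opens calcium channels, and the other potassium channels set the resting leak, end each action potential and shape the bursts that drive insulin release. Pore subunits fall into voltage-gated, inward rectifier, two-pore-domain and calcium- or sodium-activated classes. Auxiliary subunits bind to the pores and change their gating or traffic.

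Reads over genes numbered 18537326 for control cells and 18525668 for GR cells. Nr3c1, the gene on the vector, had 2645 and 5202 reads, a fold of 1.97 (95% interval 1.88 to 2.07), and these gene counts do not separate vector transcripts from the cells' own. Gapdh, a gene of glycolysis often used as a reference, had 206 and 3439 reads, and whether that difference touches the channel genes was not tested. All 9 beta cell markers looked up were in the table, with 833438 reads in sum in control cells and 787237 in GR cells, led by Ins2. Of 6 markers of acinar and duct cells, 1 was in the table (Cela1, 7 and 13 reads), and of 6 markers of other islet cells, 3 were, with 638 and 746 reads in sum. All 4 neuronal markers were in the table, with 3161 and 2992 reads, most of them from Snap25 and Tubb3. The test of reads described below called Ins1, Ins2, Iapp and Tubb3 (1232 and 1065 reads) lower in GR cells and no other marker, and the part of these differences in the channel results was not tested. Of 11 markers of immune, fibroblast, endothelial and muscle cells, 6 were in the table, with at most 192 reads each in either library.

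The channel transcripts of these cells came mostly from a few genes. The 71 genes together had 28334 reads in control cells and 27464 in GR cells, which is 0.153% and 0.148% of each library. Kcnh2, Kcnh6 and Kcnip1 alone held 45.7% of those reads in control cells and 45.2% in GR cells, and the 10 most read genes held 77.9% and 77.5%. A mean of at least 1000 reads was reached by 9 genes (12.7%, against 22.6% of all genes and 32.1% of protein-coding genes). Another 17 had 100 to under 1000, and 5 had 50 to under 100. In the lower ranges, 12 had 10 to under 50 and 28 had fewer than 10. Over both libraries 19 of the 71, or 26.8%, had under 10 reads in total, against 22.4% of all genes and 10.8% of protein-coding genes. So 31 of 71 genes, or 43.7%, had a mean of at least 50 reads, against 56.3% of all genes and 75.1% of protein-coding genes in the table. A further 22 protein-coding Kcn genes of the GENCODE M21 annotation, among them Kcna5, Kcnj2 and Kcng2, had no row in the table and were not analysed here.

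Levels were set per length, as reads per kilobase of annotated exon and per 1000000 reads of the library, so that genes could be compared with each other. On this scale the median over all 71 genes was 0.264, against 5.56 for all protein-coding genes, and 28 channel genes reached a level of 1. Kcnh2 was highest, with a level of 62.4 in control cells (95% counting interval 60.8 to 64.1) and 59.8 in GR cells (58.2 to 61.5). Kcnh6 followed at 58.4 (56.6 to 60.3) and 55.0 (53.3 to 56.9), so the intervals of these neighbours did not overlap in either library. Kcnip1 and Kcnip3 came next, at 30.4 and 28.8 in control cells, where their intervals overlapped, and at 29.7 and 25.7 in GR cells, where they did not. Kcnab2 stood at 12.5 and 12.3. Among the next, Kcnk3 stood at 8.53 and 7.20 and Kcnmb2 at 7.88 and 8.85. Their intervals overlapped in control cells (7.88 to 9.23 and 7.18 to 8.64), so their order there is not settled. In GR cells the intervals did not overlap (6.60 to 7.83 and 8.10 to 9.65). For comparison, the level of Kcnj11 was 92.9 and 89.1, which is 1.49 times that of Kcnh2 in each library.

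**Figure D1:**
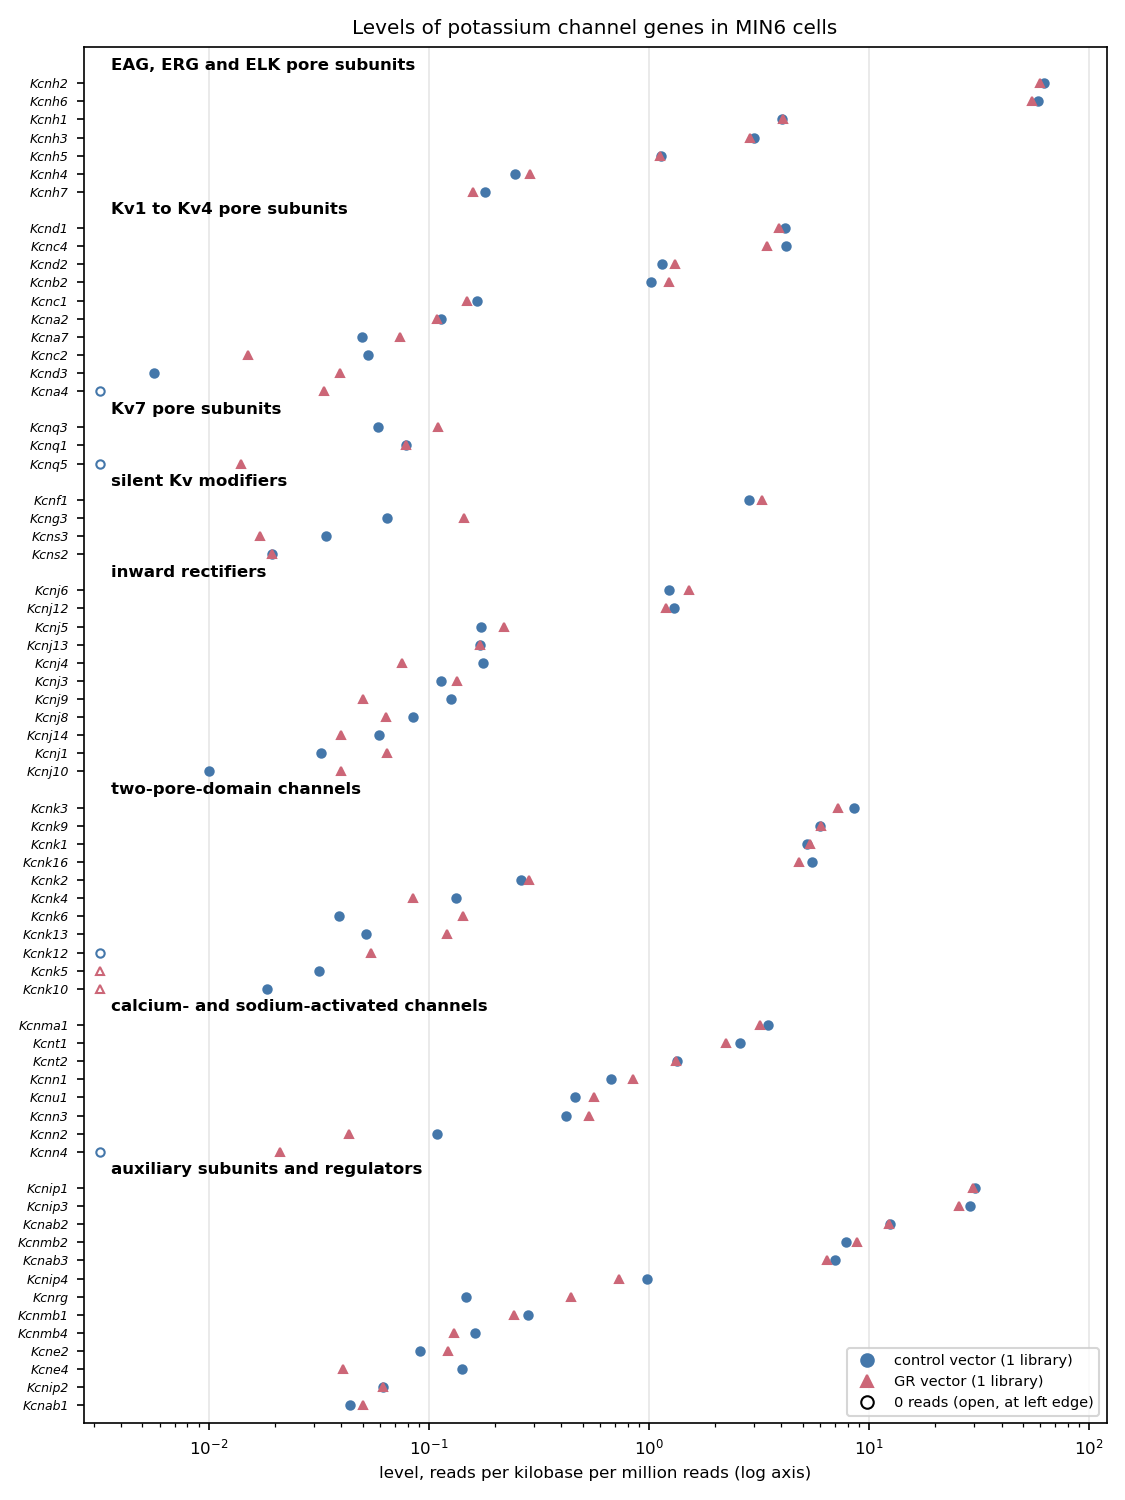
Levels of 67 potassium channel genes in reads per kilobase and 1000000 reads (log axis), grouped by channel class. Circles are the control library and triangles the GR library, and open symbols at the left edge are genes with 0 reads. Kcnh2 and Kcnh6 stand above 50 in both libraries, and the symbols of the 2 libraries lie close together for well-read genes and drift apart for genes with few reads.

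Between the libraries, 1 potassium channel gene differed beyond counting error after adjustment over all genes. Kcnip3, which encodes the calcium-binding protein KChIP3, also known as DREAM or calsenilin, had 1896 reads in control cells and 1688 in GR cells. Its fold was 0.893 (95% interval 0.836 to 0.954), with an adjusted p of 0.0281 in the exact two-sided binomial test of its reads, Benjamini-Hochberg adjusted across the whole table and called the library test here. Of 52 channel genes with at least 10 reads in total, this test called 1 lower and 0 higher, or 1.92% in either direction, while it called 3.80% of all genes tested (2.17% higher and 1.63% lower). The share of channel genes called is thus not above that of all genes. The sets are not matched in reads, and more reads let the test call smaller folds. So 1 of 52 cannot tell whether channel genes differed less or more often than other genes. Kcnip3 was lost from the call at an adjusted p under 0.01. The authors' deposited table gave none of the 71 genes an adjusted p under 0.05, against 0.0186% of all genes, and none an unadjusted p under 0.05, against 1.09%. None stood in the authors' shorter list, which holds 1.08% of all genes. The authors' adjusted threshold passed only 4 of 21542 genes, and Nr3c1, the gene on the vector, was not among them. At such low shares, 0 of 71 cannot tell whether channel genes differed. For Kcnip3 the authors' deposited table gives -0.16 as log2 fold change and 1 as adjusted p. Kcnip3 (ENSMUSG00000079056) lies on the minus strand of chromosome 2, at 127456498 to 127522094 in GRCm38.

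By size, 6 of the 31 genes that averaged 50 reads or more lay past 1.2-fold, which is 19.4%, against 7.99% of all genes at that minimum. Of the 6, 4 were higher in GR cells (4.03% of all genes were) and 2 lower (3.96% of all genes were). Among protein-coding genes at that minimum the shares were 6.46%, 3.38% and 3.08%. These sets are not matched in reads, as the median of mean reads was 394.5 for the 31 genes and 733 for all genes. The 6 genes were Kcnb2, Kcnj6, Kcnn1 and Kcnn3 above and Kcnc4 and Kcnip4 below, with adjusted p in the library test from 0.199 to 0.615. All 6 had at most 345 reads in either library. In the range of 50 to under 200 mean reads, the median absolute log2 fold was 0.25 for 8 channel genes and 0.17 for all genes in that range. In the range of 200 to under 1000 reads it was 0.14 for 14 channel genes and 0.08 for all genes. In the range of 1000 to under 10000 reads it was 0.08 for 9 channel genes and 0.05 for all genes. Channel genes thus had the larger median in each range, and in both sets the median was smaller where reads were more. The ranges hold only 8, 14 and 9 channel genes and are not matched in GC content or gene type. Whether the larger medians belong to channel genes as such was not tested. The median log2 fold over the 31 genes was -0.03, against 0.00375 for all genes at the minimum of 50 reads. Of the 31, 12 lay above 0 (38.7%, against 51.0% of all genes) and 19 below. The 95% interval of the fold excluded 1 for 9 of the 31, or 29.0%, against 18.7% of all genes. It lay above 1 for 3 genes, Kcnb2 and Kcnj6 among them (9.68%, against 10.3% of all genes). It lay below 1 for Kcnh2, Kcnh6, Kcnip3, Kcnk3, Kcnt1 and Kcnc4 (19.4%, against 8.38%). The sets are not matched in GC content of the longest transcript either, with a median of 53.9% for the 31 genes and 49.5% for all genes. Among all genes, those richer in GC lay lower more often, as given below. The intervals were not recomputed with that trend removed.

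**Figure D2:**
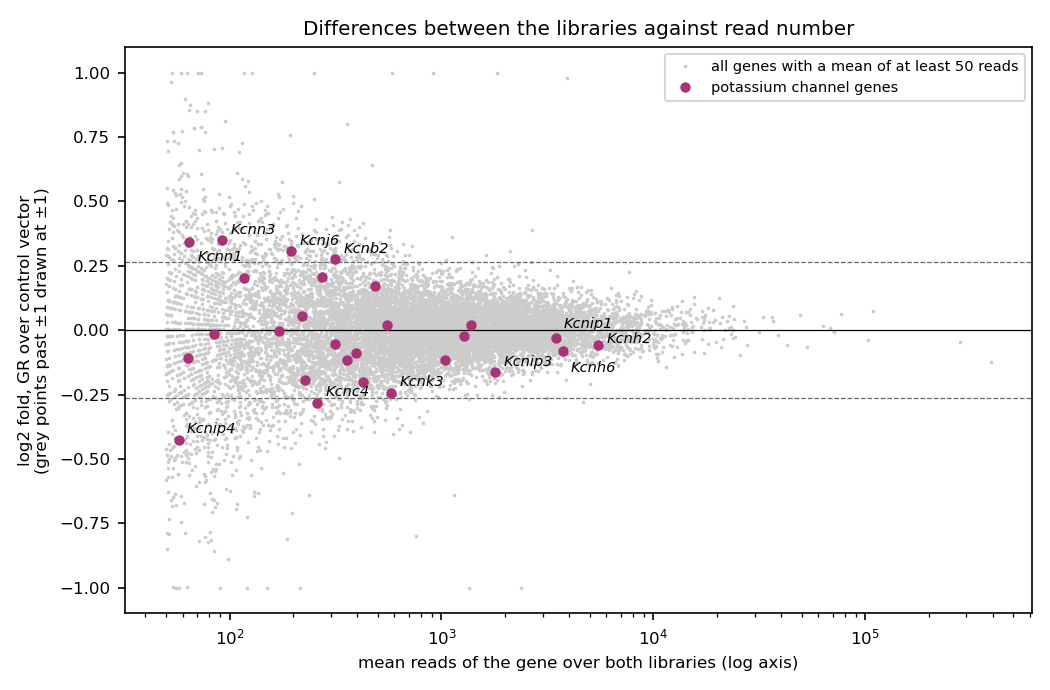
Log2 fold of GR over control cells against the mean reads of each gene (log axis), for potassium channel genes (dots) and all genes averaging 50 reads or more (grey, drawn at the edge where past 1). Dashed lines mark 1.2-fold. The 6 channel genes past the lines have at most 345 reads in either library, and the cloud of all genes is wider at low reads.

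**Figure D3:**
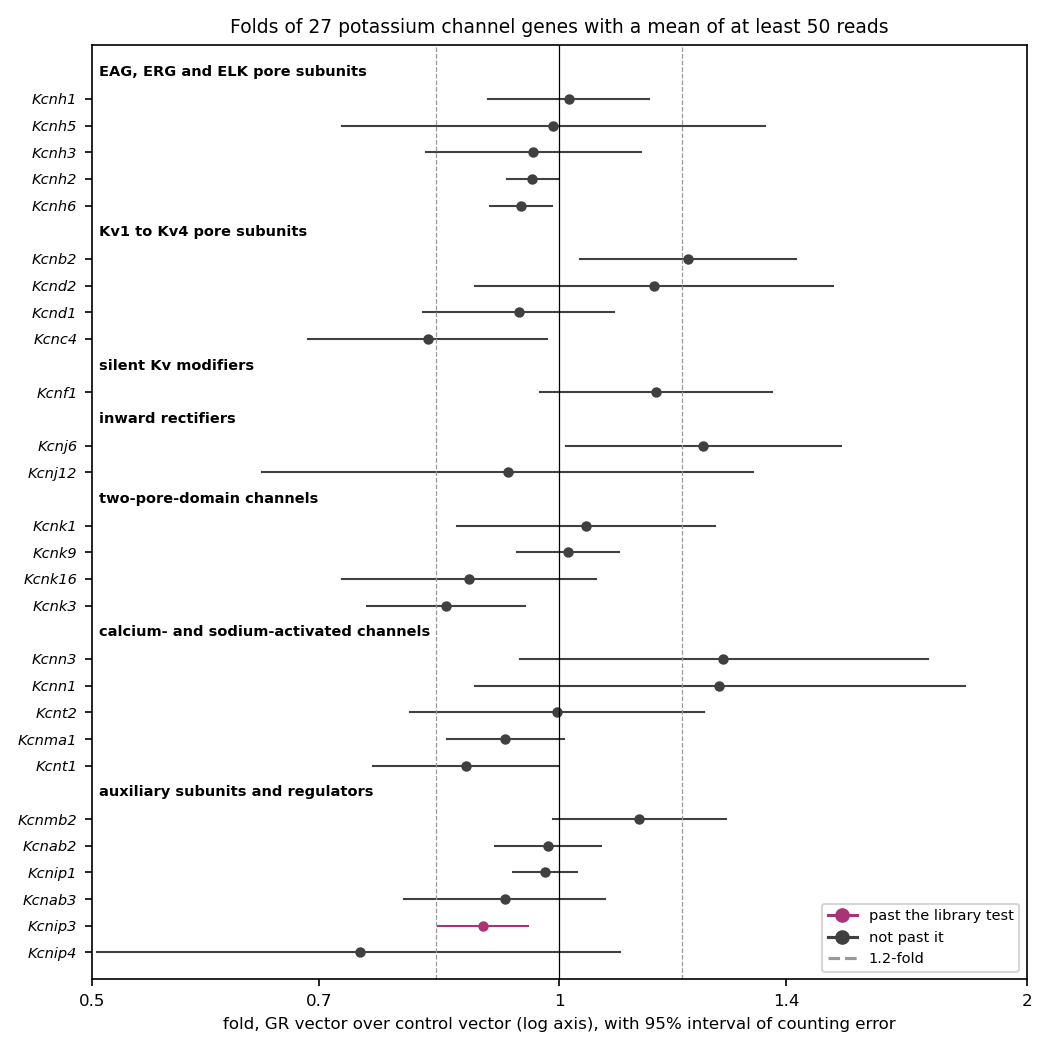
Fold of GR over control cells (log axis) for 27 potassium channel genes averaging 50 reads or more, by class, with 95% intervals of counting error. Kcnip3 is the gene past the library test, and the widest intervals belong to Kcnip4, Kcnj12 and Kcnn1.

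The ether-a-go-go class supplied the largest part of the reads. Its genes encode voltage-gated pores whose ERG members, Kcnh2 and Kcnh6, carry a current that helps to repolarize the membrane. Kcnh2 had 5608 reads in control cells and 5371 in GR cells, a fold of 0.961 (95% interval 0.925 to 0.997). Kcnh6 had 3842 and 3619, a fold of 0.945 (0.902 to 0.989). Both lay slightly lower in the GR library with intervals just under 1, and neither passed the library test (adjusted p = 0.274 and 0.168, exact binomial test). Kcnh1, the EAG pore, had 549 and 555 reads, Kcnh3 321 and 308, Kcnh5 85 and 84, Kcnh7 51 and 45, and Kcnh4 18 and 21. The third ERG gene, Kcnh7, thus had far fewer reads than the other two. The 7 genes together held 37.0% of channel reads in control cells and 36.4% in GR cells.

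Among the Kv1 to Kv4 pores, none passed the library test. Kcnb2, which encodes the delayed rectifier pore Kv2.2, had 286 and 345 reads, a fold of 1.21 (95% interval 1.03 to 1.42). Kcnc4, which encodes Kv3.4, a pore that opens and closes fast, had 284 and 233 reads, a fold of 0.823 (0.689 to 0.982). Kcnb2 thus stood higher and Kcnc4 lower in the GR library, both with intervals that exclude 1. Kcnc1 had 29 and 26 reads and Kcnc2 7 and 2. Of the transient Kv4 pores, Kcnd1 had 407 and 382 reads, Kcnd2 109 and 125, and Kcnd3 1 and 7. The Kv1 genes had few reads, with 25 and 24 for Kcna2, 2 and 3 for Kcna7, and 0 and 3 for Kcna4.

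The Kv7 genes encode slowly opening pores active near the resting potential. Kcnq3 had 16 and 30 reads, Kcnq1 6 and 6, and Kcnq5 0 and 2. The fold of Kcnq3, 1.88, had an interval of 0.993 to 3.69, which spans 1. Silent modifiers form no channel alone and alter the pores they join. The best read of these was Kcnf1, with 253 and 291 reads, a fold of 1.15 (0.971 to 1.37), while Kcng3 had 4 and 9, Kcns2 2 and 2, and Kcns3 2 and 1.

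Inward rectifiers, which pass potassium most easily near the resting potential, were few apart from Kcnj11. Their 11 genes held 1.05% of channel reads in control cells and 1.21% in GR cells. Kcnj6, a pore of the channels that G proteins open, had 175 and 216 reads, a fold of 1.24 (95% interval 1.01 to 1.52), and did not pass the library test (adjusted p = 0.291, exact binomial test). Its usual partners had few reads, Kcnj3 with 11 and 13, Kcnj5 with 15 and 19 and Kcnj9 with 10 and 4. Of the 31-base stretches of Kcnj3, 30.2% also occur in another annotated gene, so its reads are uncertain. Kcnj12, a strong rectifier, had 66 and 61 reads. The other 6 (Kcnj1, Kcnj4, Kcnj8, Kcnj10, Kcnj13 and Kcnj14) had 1 to 7 reads in each library. Kcnj13 and Kcnj14 share 44.8% and 35.6% of their 31-base stretches with other annotated genes, so their reads are uncertain too. Kcnj11 itself had 6333 and 6071 reads, a fold of 0.961 (0.928 to 0.996).

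Of the two-pore-domain genes, which encode background leak channels, none passed the library test. Kcnk3 (TASK-1, an acid-sensitive leak channel) had 629 and 530 reads, a fold of 0.845 (95% interval 0.751 to 0.950), and an adjusted p of 0.0878 in the exact binomial test, so it missed the threshold. Kcnk16 (TALK-1, a leak channel found in few tissues besides the islet) had 243 and 212, a fold of 0.875 (0.724 to 1.06). Kcnk9 (TASK-3), close kin of Kcnk3, had 1370 and 1384, a fold of 1.01 (0.940 to 1.09), and Kcnk1 (TWIK-1) had 216 and 224. Kcnk9 was the most read gene of the class, but per length it stood at 0.704 times the level of Kcnk3 in control cells and 0.844 times in GR cells. Exons of an antisense gene, Gm9899, cover 5.76% of the exonic bases of Kcnk3. The remaining 7 had at most 26 reads in either library: Kcnk2 had 24 and 26, Kcnk4 11 and 7, Kcnk6 3 and 11, and Kcnk13 3 and 7. Kcnk5 and Kcnk10 had 2 and 3 reads in control cells and 0 in GR cells, and Kcnk12 had 0 and 2.

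Calcium- and sodium-activated channels link the potential to ions inside the cell. Kcnma1, the large-conductance BK pore, had 1088 and 1001 reads, a fold of 0.923 (95% interval 0.846 to 1.01). The sodium-activated pores Kcnt1 and Kcnt2 had 455 and 395 reads (fold 0.871, 0.759 to 0.998) and 171 and 170. The small-conductance genes Kcnn3 and Kcnn1 stood at folds of 1.28 (81 and 103 reads, 0.944 to 1.73) and 1.27 (57 and 72 reads, 0.883 to 1.83), and both intervals span 1. Kcnn2 had 15 and 6 reads, Kcnu1, a sperm channel gene, 32 and 39, and Kcnn4, the intermediate-conductance pore, 0 and 2. Counting error allows up to 3 reads behind a count of 0, so Kcnn4 was not detectably different between the libraries.

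**Figure D4:**
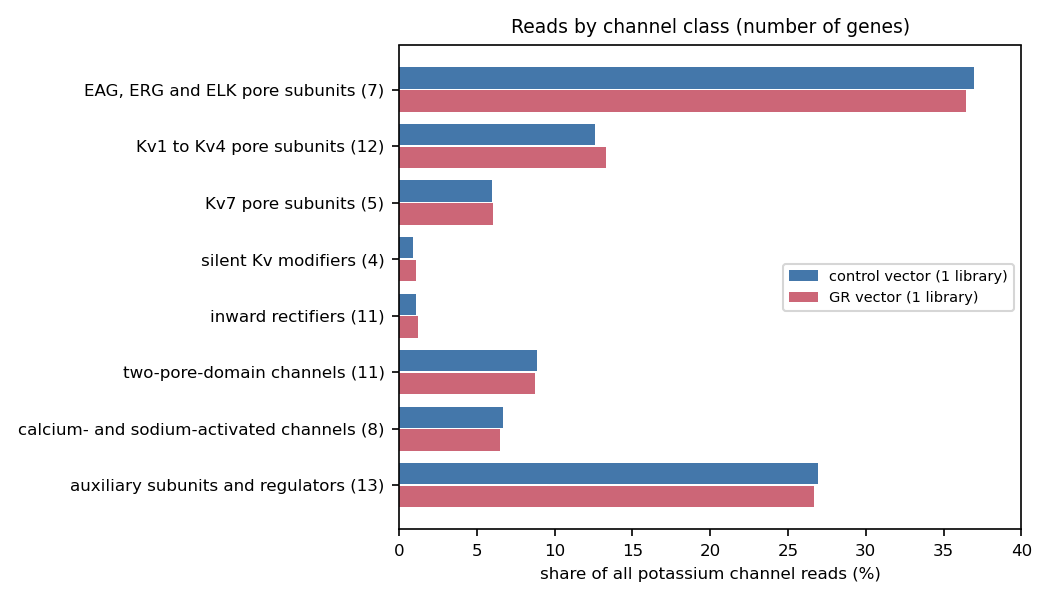
Share of all potassium channel reads taken by each class, in percent, for control cells (blue) and GR cells (red), with the number of genes in parentheses. The ether-a-go-go class takes 37.0% and 36.4%, the auxiliary genes 27.0% and 26.7%, and every class differs by under 1 percentage point between the libraries.

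Auxiliary genes held 27.0% of channel reads in control cells and 26.7% in GR cells, most of it in the KChIP genes, whose calcium-binding products attach to Kv4 pores. Kcnip1 had 3497 and 3413 reads, a fold of 0.979 (95% interval 0.933 to 1.03), Kcnip3 the 1896 and 1688 given above, Kcnip4 66 and 49 (fold 0.745, 0.504 to 1.09), and Kcnip2 4 and 4. Per length, the KChIP genes summed to 11.4 times the level of the Kv4 genes in control cells and 10.7 times in GR cells. Kcnip3 shared few of its 31-base stretches with other genes (0.425%), and exons of other genes overlapped none of its own. The exons of Kcnip4 overlap antisense genes over 7.36% of their bases.

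The beta subunits of Kv1 pores likewise had a higher summed level than their pores. Kcnab2 had 1293 and 1268 reads, a fold of 0.983 (95% interval 0.909 to 1.06), Kcnab3 372 and 342, and Kcnab1 7 and 8. Their levels per length summed to 19.6 and 18.8, against 0.163 and 0.217 for the Kv1 genes. Of the BK beta subunits, Kcnmb2, which makes the channel inactivate, had 457 and 513 reads, a fold of 1.13 (0.990 to 1.28), Kcnmb1 22 and 19 and Kcnmb4 10 and 8. The reads of Kcnmb4 are uncertain, as 33.4% of its 31-base stretches also occur in other annotated genes. Per length Kcnmb2 stood at 2.28 times the level of Kcnma1 in control cells and 2.78 times in GR cells. The size of this ratio depends on the length used. Mean levels over both libraries were 8.37 for Kcnmb2 and 3.32 for Kcnma1. With the longest transcript as length they were 8.97 and 4.66. The KCNE genes, single-pass partners of Kv7 and ERG pores, were Kcne2 with 3 and 4 reads and Kcne4 with 7 and 2. Kcnrg, a regulator of Kv1 assembly, had 5 and 15 reads, and its fold of 3.01 had an interval of 1.04 to 10.6. It did not pass the library test (adjusted p = 0.292, exact binomial test).

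Promoter sequence was looked at for the DNA motif of GR, since GR was the agent added. RefSeq promoter windows (build GRCm38.p6, 250 bases before to 50 after a start) were matched by symbol for 53 of the 71 genes, in 74 windows. The full palindrome (AGAACA, any 3 bases, TGTTCT), searched on both strands, occurred in 0 of these and in 3 of 32851 windows of all genes. Its half-site AGAACA, on either strand and so read as AGAACA or TGTTCT, which is also part of any full palindrome, occurred in 15 of 74 windows, or 20.3%, and in 19.0% of all windows. Of 29 windows of genes averaging 50 reads or more, 3 held it. They belong to Kcnip4 and Kcnj6, both past 1.2-fold but in opposite directions. The 250 bases before the start are shown for the 3 starts of Kcnip3, the gene past the library test, and for the starts of Kcnip4 and Kcnj6 that hold a half-site before the start, in lower case from 5′ to 3′ with half-sites in capitals.
Kcnip3, chr2:127522095-127522344, minus strand: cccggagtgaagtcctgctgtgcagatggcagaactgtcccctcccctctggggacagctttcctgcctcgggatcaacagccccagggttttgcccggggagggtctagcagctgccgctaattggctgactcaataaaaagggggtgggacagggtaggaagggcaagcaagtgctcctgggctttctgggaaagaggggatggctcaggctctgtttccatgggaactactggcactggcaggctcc
Kcnip3, chr2:127521393-127521642, minus strand: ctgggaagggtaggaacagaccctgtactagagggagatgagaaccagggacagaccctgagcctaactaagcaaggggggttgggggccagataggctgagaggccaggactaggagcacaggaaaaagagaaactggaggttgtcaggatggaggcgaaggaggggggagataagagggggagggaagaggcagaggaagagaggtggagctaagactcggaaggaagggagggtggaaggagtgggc
Kcnip3, chr2:127482500-127482749, minus strand: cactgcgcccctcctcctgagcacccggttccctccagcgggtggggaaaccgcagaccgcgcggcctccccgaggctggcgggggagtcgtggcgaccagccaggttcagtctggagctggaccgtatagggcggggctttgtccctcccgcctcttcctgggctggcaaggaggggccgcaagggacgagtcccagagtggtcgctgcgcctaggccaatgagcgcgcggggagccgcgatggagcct
Kcnip4, chr5:48599683-48599932, minus strand: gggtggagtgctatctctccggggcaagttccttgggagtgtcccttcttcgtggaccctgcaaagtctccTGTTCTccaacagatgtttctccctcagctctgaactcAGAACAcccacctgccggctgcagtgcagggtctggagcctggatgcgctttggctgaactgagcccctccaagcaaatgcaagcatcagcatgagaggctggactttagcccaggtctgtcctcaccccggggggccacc
Kcnj6, chr16:94997697-94997946, minus strand: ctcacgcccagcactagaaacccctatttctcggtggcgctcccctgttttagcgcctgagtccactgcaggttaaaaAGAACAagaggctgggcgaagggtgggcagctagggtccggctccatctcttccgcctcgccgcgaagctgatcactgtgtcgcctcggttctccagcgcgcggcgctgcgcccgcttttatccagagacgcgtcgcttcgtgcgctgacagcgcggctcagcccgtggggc
The 250 bases shown for Kcnip3 hold 0 half-sites and 4, 2 and 23 CpG dinucleotides in that order. Those of Kcnip4 hold 2 half-sites, with 1 more after the start that is not shown, and those of Kcnj6 hold 1. A match to these letters describes the sequence and is no evidence of binding, and the gene counts do not tell apart transcripts from different starts.

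Base composition moved with the differences between the libraries, in channel genes as in all genes. Over the 31 better read channel genes, the log2 fold was lower at higher GC content of the longest transcript, with Pearson's r = -0.28 and Spearman's rho = -0.37, and over 12109 genes with r = -0.24 and rho = -0.34. These are descriptions across genes of the same 2 libraries, and genes are not independent replicates. Of 21 channel genes at or above the median GC content of all genes (49.5%), 15 lay below 0, while of 10 under it 4 did. Among all genes the numbers below 0 were 3806 of 6055 and 2122 of 6054. With the GC trend over all genes removed, the median log2 fold of the 31 genes went from -0.03 to -0.02, with 15 above 0 and 16 below. Kcnh2 then stood at 0.00306 in place of -0.06, Kcnh6 at -0.03 in place of -0.08 and Kcnip3 at -0.13 in place of -0.16, while Kcnk3 stood at -0.19. The part of base composition in any single difference was not tested.

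**Figure D5:**
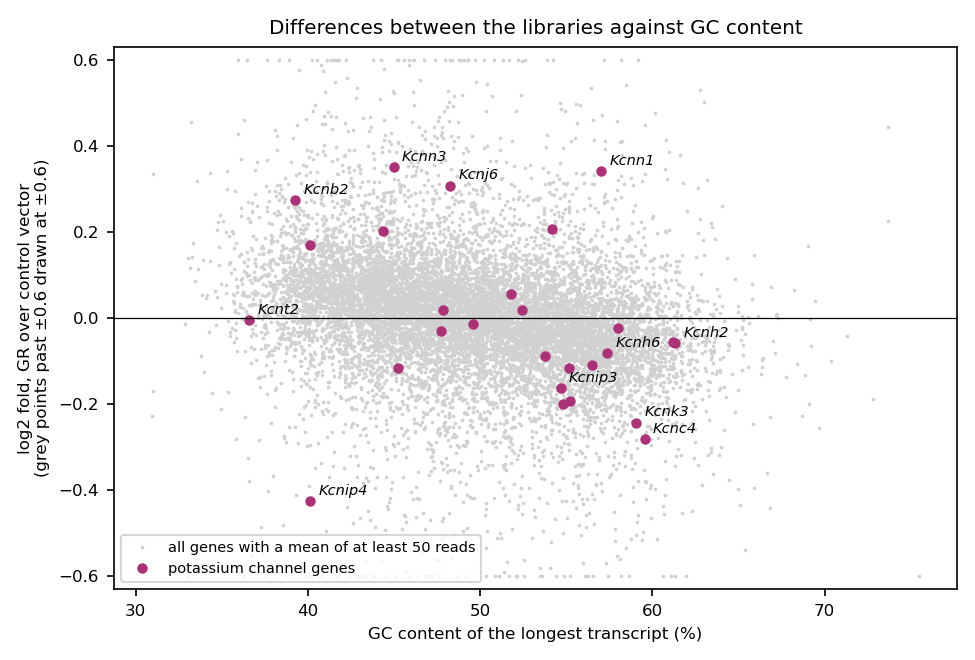
Log2 fold of GR over control cells against the GC content of each gene's longest transcript in percent, for potassium channel genes (dots) and all genes averaging 50 reads or more (grey, drawn at the edge where past 0.6). The cloud of all genes slopes downward to the right, and Kcnk3, Kcnc4 and Kcnh2 sit in its GC-rich part.

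Genes whose products work with these channels were taken as a list of 25, of which 23 were in the table, 1 with too few reads for the library test. The library test called 1 of the others, lower, where it called 3.80% of all genes in either direction. This was Abcc8, the sulfonylurea receptor that surrounds the Kcnj11 pore, with 26562 and 24777 reads, a fold of 0.935 (95% interval 0.919 to 0.952) and an adjusted p of 3.37e-11 in the exact binomial test. Amigo1, an adhesion protein that accompanies delayed rectifier pores, had 3224 and 3332 reads, and Vapb, a protein of the endoplasmic reticulum, 5829 and 5879. Lrrc26, a gamma subunit of BK channels, had 254 and 249 reads. With lengths from annotated exons its level was 3.33 times that of Kcnma1 in control cells. The Kv4 partners Dpp6 and Dpp10 had 60 and 44 reads and 176 and 204. Hcn2 and Hcn4, pores opened by hyperpolarization, had 3064 and 2979 reads and 2554 and 2485. Calmodulin, the calcium sensor of small-conductance and Kv7 channels, was represented by Calm3, with 10517 and 10365 reads. The ubiquitin ligase genes Nedd4 and Nedd4l had 15713 and 16195 reads and 1229 and 1244. Tmem38a, a cation channel of the reticulum that stores calcium, had 521 and 539 reads, and Tmem175, a lysosomal channel, 362 and 355. The reads of Tmem175 are uncertain, as exons of Dgkq, on the other strand, cover 35.3% of its exonic bases. Sgk1, a kinase gene known to respond to glucocorticoids and to act on channels, had 49 and 53 reads and was singled out after its values were seen.

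Of the 17 genes in the table from a list of 18 channel genes known from beta cell physiology, 0 passed the library test, where 1.92% of all tested channel genes and 3.80% of all genes did. Kcnn4, with 0 and 2 reads, is among the 17 but had too few reads to be tested. The 17 genes held 18019 reads in control cells and 17478 in GR cells, most of them from Kcnh2, Kcnh6 and Kcnip1. In simulated libraries of the same depth with counting error only, the test recovered 52% of 1.2-fold and 94% of 1.5-fold changes. These were simulated in genes drawn from all that averaged 50 reads or more, whose median was 733 mean reads. The 31 better read channel genes had a median of 394.5, so recovery was not measured for channel genes. None of the 31 better read channel genes reached 1.5-fold. How small a difference the test could detect in channel genes with few reads was not measured. Antisense genes named after channels had 347 and 324 reads (Kcnq1ot1), 2 and 7 (Kcnab3os) and 7 and 3 (Kcnmb4os2). Kcnab3os covers 5.13% of the exonic bases of Kcnab3 and Kcnq1ot1 2.96% of those of Kcnq1, and the sources used here do not state whether counting used strand.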

How the data were processed

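The members and gene lists were chosen with earlier results of these data known. The authors deposited, for each of 2 libraries, a normalized signal per gene. Dividing it by each library's smallest step gave whole reads for 100% of values, within 0.01 reads. The authors deposited a log2 fold change, a p-value and an adjusted p-value in the same table and in a list of 233 genes. DESeq2 1.10.1 is named in the submitters' processing notes, with no role. Not given in the sources used here are the aligner, counter, strand handling and build. Whole libraries differed little in depth (18537326 and 18525668 reads), and reads per gene set the precision.

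Folds used TMM factors from edgeR 4.0.16 (1.00 and 0.999) and exact 95% Clopper-Pearson intervals. The library test is the exact two-sided binomial test over the 16723 genes with at least 10 reads in total, with Benjamini-Hochberg adjustment (scipy 1.17.1). It was tested on simulated data with 200 changed genes. Level intervals are exact Poisson intervals. Lengths, GC content and shared 31-base stretches came from GENCODE M21 (GRCm38), which holds all 71 genes, 69 with the deposited coordinates.

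Named genes were those past the library test, the 5 highest and 5 lowest folds with a mean of at least 50 reads, the 10 highest levels, the most read gene of each class and a beta cell list. Other members are given by their reads. Of the members 4, and 1 partner gene, are not reported here by name or drawn, and stay in all counts and sums. Alternatives were other scalings, read minimums, fold limits and thresholds, the deposited fold changes and a removed GC trend.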

Additional observations from a re-analysis of the deposited data

How the results depend on the processing

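The count of channel genes past the library test stayed at 1 (Kcnip3, lower) with total reads, with median-of-ratios size factors, with no filter and with a minimum of 100 reads. It was 0 at an adjusted p under 0.01 and 0 with Bonferroni adjustment. The count past 1.2-fold, 6 (4 higher and 2 lower), became 8 (6 and 2) when the 38 genes averaging 20 reads or more were counted, 13 (7 and 6) at a limit of 1.1, 0 (0 and 0) at 1.5, and 2 (1 and 1) with a mean of at least 200 reads, Kcnb2 and Kcnc4. With the GC trend removed it was 4 (3 and 1), without Kcnb2 and Kcnc4. All genes past these limits came to 13.2%, 24.9%, 0.866%, 2.81% and 7.43%. The median log2 fold, -0.03, ran from -0.04 to 0.0042 over its alternatives, the highest over all 71 genes with 0.5 added to each count. Removing the GC trend turned Kcnab2 to 0.0268 and Kcnh2 to 0.00306. No other named gene turned sign, while Kcnh3, outside the named list, went from -0.06 to 0.00549 with the GC trend removed. Kcnq1 came to exactly 0 with size factors. The library test was rerun for named genes with total reads and with size factors, where each kept its side of the threshold (Kcnip3 at adjusted p = 0.0242 and 0.0229, exact binomial test). The removed GC trend and the deposited fold changes carry no such test, and the authors' deposited table gives Kcnip3 an adjusted p of 1. Nr3c1 did not pass the authors' adjusted threshold either. Longest transcripts in place of merged exons gave 29 genes at a level of 1 or more in place of 28, with the same 10 highest. Genes under 10 reads in total, 19 of 71, could not be compared. No paired analysis was possible because each group has 1 library.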
